A study of Mus musculus with 22 samples.

Results

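The inflammasome and interleukin-1 pathway was followed through 10 genes of the mouse spinal cord: the cytokine genes Il1a, Il1b and Il18, the receptor antagonist Il1rn, the sensors Nlrp3 and Aim2, the adaptor Pycard, the inflammatory caspases Casp1 and Casp4, and the pore-forming effector Gsdmd. They were chosen by name, as the rows of the count table that carry their Ensembl identifiers, and all 10 were present among 21995 genes. RNA was sequenced from whole spinal cords of 22 C57BL/6 mice, 1 library per mouse, in 2 experiments. Aging was studied in wild-type males, 8 of them young (3 to 4 months) and 8 old (18 to 24 months). Amyotrophic lateral sclerosis (ALS) was studied in 3 G93a mice and 3 wild-type controls, all at 5 to 6 months. In G93a mice, human SOD1 bearing the mutation G93A is present as a transgene in many copies, driven by the human SOD1 promoter and thus not limited to 1 cell type, and were symptomatic when taken. Each ALS group held 2 females and 1 male, whose libraries the labels do not tell apart. The aging libraries were made with the Roche RNA KAPA Hyperprep kit and the ALS libraries with Illumina TruSeq, so each comparison lies within 1 kit and a difference between the experiments cannot be told apart from the kit. Libraries are called by letters in the order of the table within a group, such as old A or G93a B, and the letters carry no other meaning.

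Inflammasomes are protein platforms that assemble in the cytosol when a sensor meets a danger or microbial signal. The sensor recruits the adaptor ASC, the product of Pycard, which gathers and activates caspase-1, and caspase-1 cuts the precursors of IL-1 beta and IL-18 and the pore-former gasdermin D. In the central nervous system most of these components are known from microglia and other myeloid cells, and IL-1 signalling is limited by a receptor antagonist, the product of Il1rn. Protein, cleavage and secretion were not measured here, and all values below are transcript levels.

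The young libraries held between 5078092 and 9358055 counts and the old libraries between 5664869 and 9145600. The control libraries held between 10693060 and 13219797 and the G93a libraries between 9675610 and 11872431. A count of 3, taken as the least that this depth can show, was worth 0.329 to 0.582 CPM (a library's counts scaled to a common size, with TMM factors) in young, 0.32 to 0.525 in old, 0.231 to 0.285 in control and 0.254 to 0.302 in G93a libraries, and this floor covers counting error only. In every library the summed markers of neurons reached at least 3070 CPM and those of oligodendrocytes at least 23500 CPM. Old F gave 15.1% of its counts to its 10 most abundant genes, against 8.01% to 11.9% in the other old libraries, and its summed level of 10 pan-myeloid markers was 361 CPM against 527 to 670. G93a B had a summed pan-myeloid level of 985 CPM against 2310 and 1730 in G93a A and G93a C.

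A gene was called when its log2 fold change exceeded 1 and its adjusted p in edgeR was under 0.05. In old mice Casp1 was the only member called among the 5 that had enough counts to be tested, against 2.18% of 13647 tested genes called higher. With the adjusted p alone Casp1, Pycard and Gsdmd, 3 of the 5, passed as higher, against 13.5% of tested genes. Il1a, Il1b, Il1rn, Nlrp3 and Casp4 had too few counts in the aging libraries for that test, and each is described by its counts and an exact permutation test. In G93a mice 9 members were tested and 8 were called higher, each with all 3 G93a libraries above all 3 controls, against 8.5% of 14386 tested genes called higher and 25.7% whose groups did not overlap in that direction. With the adjusted p alone the same 8 passed, against 18.4% of tested genes. Of the 9, Il1a, Il1rn, Nlrp3 and Casp4 had fewer than 10 counts in at least 1 library and passed the filter through the counts of the G93a group. The other 5 had at least 10 counts in every library of this comparison. Il18 was not called in either comparison. The change of each member with its interval shows Il18 at 0 beside members that moved.

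**Figure D1:**
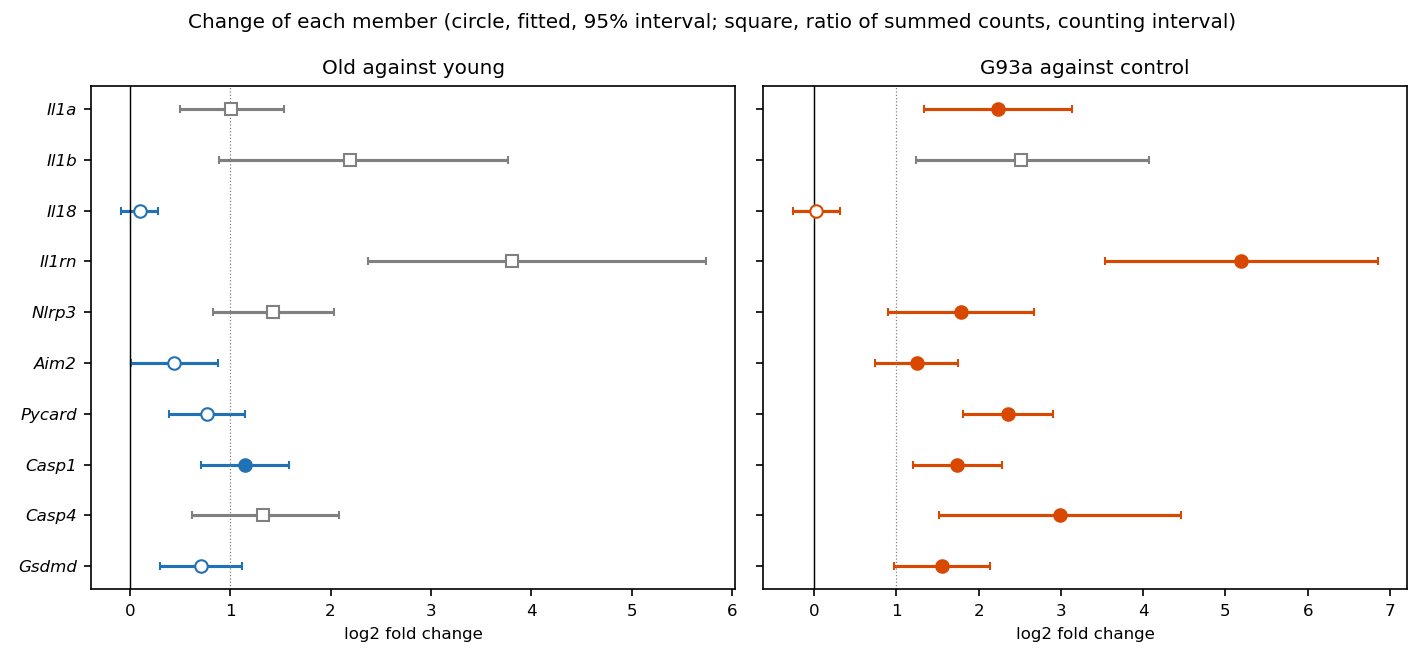
Log2 fold change of the 10 members in old against young mice (left) and in G93a against control mice (right). Circles are fitted values with 95% intervals, filled where the gene was called, and grey squares are ratios of summed counts with 95% counting intervals for members too low to be tested. Il18 lies at 0.10 and 0.02, and Il1rn lies farthest to the right in both panels.

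Levels of different genes were set side by side as FPKM (fragments scaled by transcript length and by depth). Il18 had the highest level of the 10 members in all 4 groups, with a median of 18.0 FPKM in young, 18.6 in old, 20.3 in control and 21.1 in G93a mice, and its lowest library lay above the highest library of the next member in each group. In young mice the medians then ran from Aim2 at 2.58 FPKM through Pycard at 1.68, Casp1 at 1.22 and Gsdmd at 0.945 down to Il1a at 0.34, Casp4 at 0.27, Nlrp3 at 0.15, Il1b at 0.045 and Il1rn at 0.0, and every neighbouring pair below Il18 overlapped. In G93a mice Pycard came next after Il18 at 13.3 FPKM, followed by Aim2 at 9.96, with ranges that overlapped. Aim2 did not overlap with Casp1, the next at 5.31 FPKM. Gsdmd followed at 5.15 FPKM, then Casp4 at 2.21, Il1a at 1.75, Il1rn and Nlrp3 each at 1.13 and Il1b at 0.59, and neighbours among these overlapped. Levels were not compared between the 2 experiments.

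**Figure D2:**
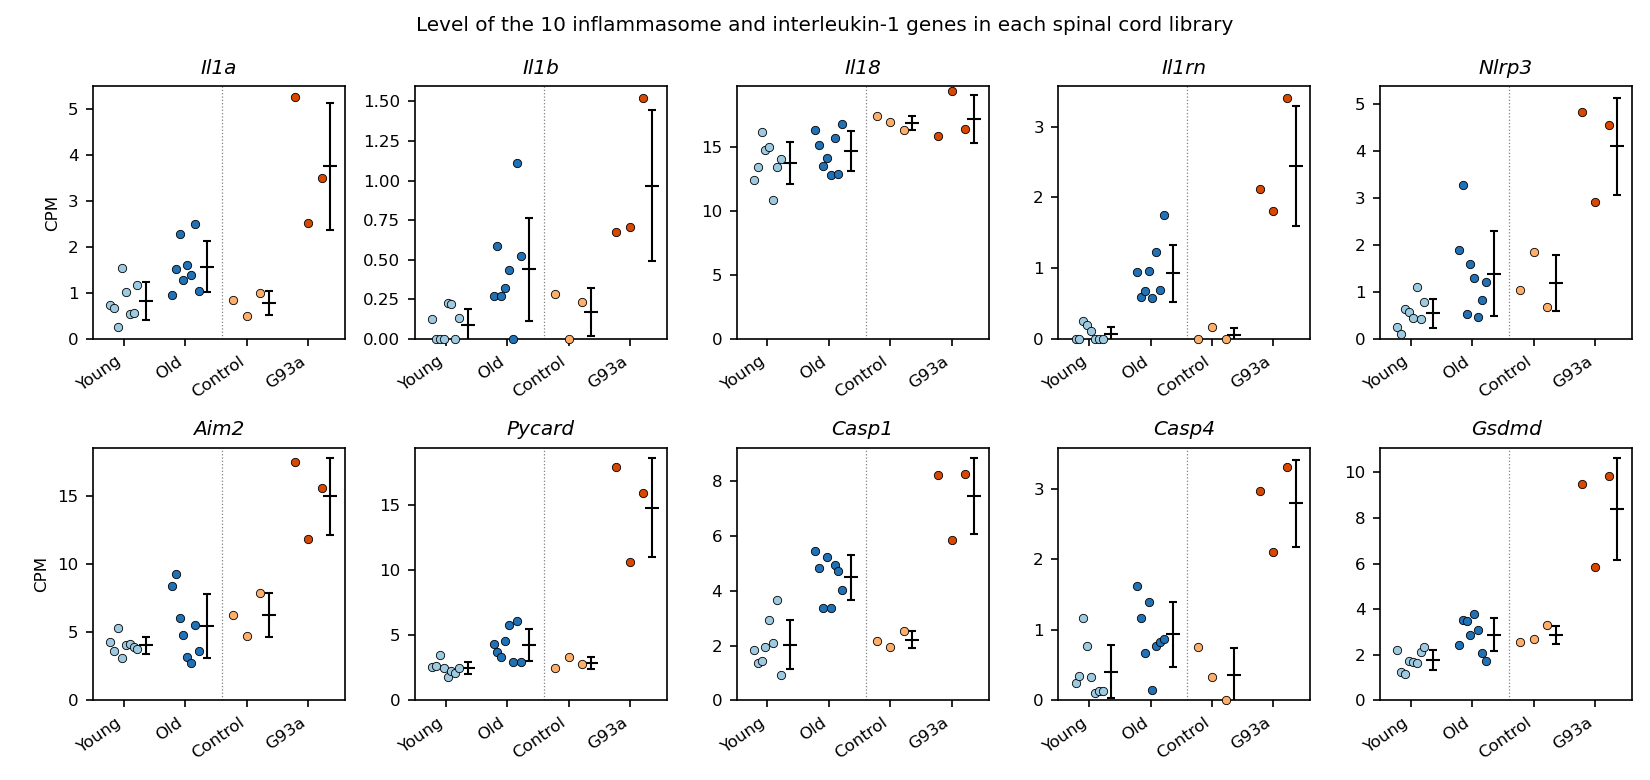
CPM of each member in each library, with the mean and SD of the group at the right of its points. The dotted line parts the aging experiment (8 mice a group) from the ALS experiment (3 mice a group). In 9 panels the 3 G93a points lie above the 3 control points, and in the Il18 panel they overlap.

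IL-18, a cytokine that drives interferon gamma release, is made as a precursor that caspase-1 cuts. Il18 (GRCm38 chromosome 9, 50554827 to 50581840, + strand) ranged from 10.8 CPM through a median of 13.7 to 16.1 in young mice, and from 12.8 through 14.6 to 16.8 in old mice. The Il18 log2 fold change in aging was 0.10 (SE 0.09, 95% interval -0.09 to 0.28, edgeR adjusted p = 0.46). In the ALS experiment the controls had 17.4, 16.9 and 16.3 CPM and the G93a mice 15.8, 19.3 and 16.4, and the groups overlapped. For Il18 in G93a mice the log2 fold change was 0.02 (SE 0.13, 95% interval -0.26 to 0.31, edgeR adjusted p = 0.9). Both intervals lay within a log2 change of 1 in either direction. The highest G93a library for Il18, G93a B, was the lowest of the 3 for 8 other members.

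Il1a encodes IL-1 alpha, which is active without cleavage by caspase-1. Il1a (chromosome 2, 129299610 to 129309972, - strand) ranged from 0.26 CPM through a median of 0.712 to 1.55 in young mice and from 0.952 through 1.46 to 2.5 in old mice, and the groups overlapped. The old libraries held 93 counts and the young 49, a ratio of 2.01 per library size (95% counting interval 1.41 to 2.9), and the exact two-sided permutation p over 8 against 8 mice was 0.00699. With no filter its log2 fold change in aging was 0.97 (SE 0.31, edgeR adjusted p = 0.0281). In controls Il1a stood at 0.854, 0.505 and 0.999 CPM and in G93a mice at 5.25, 2.52 and 3.49. For Il1a in G93a mice the log2 fold change was 2.24 (SE 0.4, edgeR adjusted p = 0.00418), and the lowest G93a library, G93a B, lay above every control. Exons of Il1a overlap Gm14023 on the other strand, and whether the authors' counting used strand is not stated, so reads of the pair may not be told apart.

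IL-1 beta, the cytokine most closely tied to caspase-1, was near the floor. Il1b (chromosome 2, 129364570 to 129371139, - strand, 54598 bases beyond Il1a) held 6 counts over the 8 young libraries, 4 of which were at 0, and 26 counts over the 8 old libraries, 1 of which was at 0. The ratio per library size was 4.59 (95% counting interval 1.85 to 13.6) with an exact two-sided permutation p of 0.0042. The highest old library, old G, held 8 of the 26 counts and the groups overlapped. Controls held 3, 0 and 3 counts of Il1b, and G93a mice held 8, 7 and 17. The ratio was 5.74 (95% counting interval 2.37 to 16.8), and the exact permutation p of 0.1 is the smallest that 3 against 3 can give. With no filter on low counts the Il1b log2 fold change was 2.03 (SE 0.63, edgeR adjusted p = 0.0234) in old and 2.43 (SE 0.79, adjusted p = 0.0412) in G93a mice, past both thresholds. The G93a libraries lay above all controls, with at most 17 counts among at least 9675610. Il1b shares exon sequence with the antisense gene Il1bos, with the same limit on strand.

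Il1rn, whose product occupies the IL-1 receptor without signalling, had the largest ratio of the 10 in both experiments, with counting intervals that overlapped that of Il1b in aging and those of Il1b and Casp4 in ALS (chromosome 2, 24336853 to 24351494, + strand). Young libraries held 0, 0, 2, 1, 1, 0, 0 and 0 counts and old libraries 7, 5, 5, 9, 4, 8, 5 and 10. Each old library lay above every young library, a separation seen in 3.66% of the genes tested in aging. Il1rn was too low to be among those genes, so the share comes from genes with more counts. On 53 against 4 counts the ratio was 14.0 (95% counting interval 5.17 to 53.4), and the exact two-sided permutation p was 0.000155, the smallest that 8 against 8 can give. With no filter on low counts the log2 fold change was 3.51 (SE 0.55, edgeR adjusted p = 4.05e-05). Controls held 0, 2 and 0 counts and G93a mice 25, 18 and 38, or 2.12, 1.81 and 3.4 CPM. For Il1rn in G93a mice the log2 fold change was 5.19 (SE 0.73, edgeR adjusted p = 0.00145). It rests on 81 against 2 counts, a ratio of 43.6 with a 95% counting interval of 11.7 to 366. Control B held both control counts, and without it the G93a level was at least 19.3-fold higher, against a floor of 3 counts over the other 2 controls. The 300-base stretch around the RefSeq start of Il1rn (chr2:24336610-24336909, + strand), 250 bases before and 50 after the start, is shown here because this gene had the largest ratios. Capitals mark its 1 match to the AP-1 motif TGANTCA.
Il1rn promoter: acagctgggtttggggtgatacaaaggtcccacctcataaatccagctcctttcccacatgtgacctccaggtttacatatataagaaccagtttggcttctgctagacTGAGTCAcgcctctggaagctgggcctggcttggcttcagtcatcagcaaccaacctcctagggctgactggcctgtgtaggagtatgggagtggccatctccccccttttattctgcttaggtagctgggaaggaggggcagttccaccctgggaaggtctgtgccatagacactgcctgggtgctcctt

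Nlrp3 encodes the sensor that responds to ion fluxes and membrane damage. Nlrp3 (chromosome 11, 59541568 to 59566956, + strand) ranged from 0.114 CPM through a median of 0.517 to 1.1 in young mice and from 0.463 through 1.27 to 3.29 in old mice. The groups overlapped, and old B alone held 28 of the 86 old counts, against 34 counts in young mice. The ratio was 2.68 (95% counting interval 1.78 to 4.11), with an exact two-sided permutation p of 0.0117. Without the filter Nlrp3 had a log2 fold change of 1.35 (SE 0.41, edgeR adjusted p = 0.0208). Controls had 1.04, 1.85 and 0.692 CPM and G93a mice 4.83, 2.92 and 4.57. For Nlrp3 in G93a mice the log2 fold change was 1.78 (SE 0.39, edgeR adjusted p = 0.00943), and the lowest G93a library stood above the highest control.

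Aim2 encodes the sensor of double-stranded DNA in the cytosol. Aim2 (chromosome 1, 173350879 to 173466040, + strand) ranged from 3.11 CPM through a median of 4.01 to 5.32 in young mice and from 2.78 through 5.18 to 9.27 in old mice. The old group was the wider of the 2, with old A and old B at 8.43 and 9.27 CPM and old E and old F at 3.21 and 2.78, within or below the young range. The Aim2 log2 fold change in aging was 0.44 (SE 0.21, edgeR adjusted p = 0.123), and over the 16 libraries left out in turn the adjusted p ran from 0.0356 (log2 fold change 0.54, without old F) to 0.306 (0.28, without old B). In controls Aim2 had 6.26, 4.71 and 7.91 CPM and in G93a mice 17.5, 11.9 and 15.6. For Aim2 in G93a mice the log2 fold change was 1.25 (SE 0.22, edgeR adjusted p = 0.00436) without overlap of the groups.

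Pycard, the adaptor ASC that links sensors to caspase-1, had the smallest adjusted p of the members in G93a mice. Pycard (chromosome 7, 127989708 to 127993867, - strand) ranged from 1.81 CPM through a median of 2.5 to 3.5 in young mice and from 2.93 through 4.05 to 6.11 in old mice, and the groups overlapped. The Pycard log2 fold change in aging was 0.77 (SE 0.18, edgeR adjusted p = 0.00311), below the threshold of 1 on the fold change. Controls had 2.47, 3.37 and 2.77 CPM and G93a mice 17.9, 10.6 and 15.9, so that the lowest G93a library held more than every control. For Pycard in G93a mice the log2 fold change was 2.36 (SE 0.24, edgeR adjusted p = 0.000321), or 5.15-fold. Exons of Pycard overlap Gm45205 on the other strand. Its RefSeq promoter (chr7:127993818-127994117, - strand) is shown because Pycard was the member whose change differed between the experiments, with 1 match in capitals to the core GAGGAA of sites for PU.1, a myeloid transcription factor.
Pycard promoter: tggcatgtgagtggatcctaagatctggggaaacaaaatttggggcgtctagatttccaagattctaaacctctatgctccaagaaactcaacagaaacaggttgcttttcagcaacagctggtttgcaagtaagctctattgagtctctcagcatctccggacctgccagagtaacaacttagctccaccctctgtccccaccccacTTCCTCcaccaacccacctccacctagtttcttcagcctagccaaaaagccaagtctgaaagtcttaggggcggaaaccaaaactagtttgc

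Caspase-1 is the protease of the inflammasome. Casp1 (chromosome 9, 5298517 to 5307265, + strand) ranged from 0.915 CPM through a median of 1.9 to 3.67 in young mice and from 3.35 through 4.77 to 5.44 in old mice. Only young G, at 3.67 CPM, reached into the old range, where old C and old E had 3.36 and 3.35. The Casp1 log2 fold change in aging was 1.15 (SE 0.21, edgeR adjusted p = 0.000319), or 2.22-fold, and Casp1 was called with any 1 of the 16 libraries left out. Controls had 2.18, 1.94 and 2.54 CPM and G93a mice 8.22, 5.84 and 8.24, with no overlap. For Casp1 in G93a mice the log2 fold change was 1.74 (SE 0.24, edgeR adjusted p = 0.0013), or 3.34-fold. Of the 5 members tested in both comparisons, Casp1 was the only one called in both. The RefSeq promoters of Casp1 (chr9:5298267-5298566, + strand) and of Il18 (chr9:50554450-50554749, + strand) are shown as those of a caspase and 1 of its substrates. Casp1 had 1 match to GAGGAA, in capitals, and Il18 had no match to any motif searched. Il1b, which encodes another substrate, had no match either. Il1rn, Casp4 and the Nlrp3 start nearest to its GENCODE start also lacked GAGGAA, though they were called in G93a mice. Another RefSeq start of Nlrp3, 1118 bases from the GENCODE start, had 3 matches to GAGGAA. A link between motif and change was not tested.
Casp1 promoter: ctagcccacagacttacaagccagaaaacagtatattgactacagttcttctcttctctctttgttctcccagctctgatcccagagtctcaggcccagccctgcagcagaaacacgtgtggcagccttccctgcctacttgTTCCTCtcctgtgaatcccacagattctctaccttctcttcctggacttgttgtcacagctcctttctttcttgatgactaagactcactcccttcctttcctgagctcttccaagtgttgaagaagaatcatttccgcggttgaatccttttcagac
Il18 promoter: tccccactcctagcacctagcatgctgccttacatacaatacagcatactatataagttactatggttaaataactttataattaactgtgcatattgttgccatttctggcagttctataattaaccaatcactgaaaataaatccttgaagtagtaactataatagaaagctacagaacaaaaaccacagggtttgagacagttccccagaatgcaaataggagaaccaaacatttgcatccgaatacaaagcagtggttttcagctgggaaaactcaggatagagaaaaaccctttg

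Casp4 encodes caspase-11 of the mouse, which binds bacterial lipopolysaccharide in the cytosol, and starts 1563 bases beyond the end of Casp1 (chromosome 9, 5308828 to 5336783, + strand). Young libraries ranged from 0.11 CPM through a median of 0.293 to 1.17 and old libraries from 0.146 through 0.854 to 1.63. Old libraries held 57 counts and young libraries 24, a ratio of 2.51 (95% counting interval 1.54 to 4.24), and the exact two-sided permutation p was 0.0244. Old E held 1 count, and the groups overlapped. Without a filter on low counts the edgeR adjusted p was 0.0549. Controls held 8, 4 and 0 counts and G93a mice 35, 21 and 37. For Casp4 in G93a mice the log2 fold change was 2.99 (SE 0.65, edgeR adjusted p = 0.00921), and it was 4.03 without control A and 2.35 without control C.

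Gasdermin D forms the membrane pore through which IL-1 beta leaves the cell and by which pyroptosis kills it. Gsdmd (chromosome 15, 75862327 to 75867408, + strand) ranged from 1.17 CPM through a median of 1.72 to 2.35 in young mice and from 1.75 through 2.98 to 3.79 in old mice, with overlap. The Gsdmd log2 fold change in aging was 0.71 (SE 0.2, edgeR adjusted p = 0.0104), below the threshold of 1. Controls had 2.56, 2.69 and 3.3 CPM and G93a mice 9.49, 5.84 and 9.85, without overlap. For Gsdmd in G93a mice the log2 fold change was 1.55 (SE 0.26, edgeR adjusted p = 0.00319).

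RefSeq promoters of the GRCm38.p6 assembly were matched for 9 of the 10 members, counting for each gene the start nearest to its GENCODE start, and none was matched for Gsdmd. GAGGAA was found on either strand in 4 of the 9, Il1a, Casp1, Pycard and Aim2, and in 28.3% of 32851 promoters of the same length. Those promoters were not limited to 1 start per gene, and the other Nlrp3 start, which has GAGGAA, was not counted. TGANTCA was found in Il1a and Il1rn, 2 of the 9, against 7.81%. The kappaB motif was found in Nlrp3 and Casp4, 2 of the 9, against 8.46%. The interferon-stimulated response element GAAANNGAAA was found in 0 of the 9, against 3.44%. The Aim2 start lies 69725 bases inside the GENCODE gene, so it may stand for 1 of several transcripts.

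Whole spinal cord holds many cell types, and in such bulk samples more cells of a type and more RNA per cell cannot be told apart. All 10 pan-myeloid markers, such as Itgam and Cd68, were called higher in both comparisons, with median log2 fold changes of 1.66 in old and 3.14 in G93a mice against a median over all tested genes of about 0. Their summed level was 149 to 178 CPM in young, 361 to 670 in old, 157 to 186 in control and 985 to 2310 in G93a libraries. Of 10 microglia markers 3 were called in old and 6 in G93a mice, with medians of 0.70 and 1.74 and summed levels of 360 to 402 CPM in young, 506 to 732 in old, 380 to 451 in control and 1140 to 1750 in G93a libraries. P2ry12, a marker of resting microglia, was among those not called, with log2 fold changes of 0.05 (edgeR adjusted p = 0.814) and 0.13 (adjusted p = 0.363). The part of myeloid cells in the members' changes was not tested. Of the 10 neutrophil markers none had enough counts to be tested, with Ly6g at 0 in every library and summed levels of 0.194 to 1.27 CPM in young, 0.463 to 3.13 in old, 0 to 1.71 in control and 0.705 to 2.63 in G93a libraries. Summed monocyte markers were 30.1 to 37.7 CPM in young, 20.1 to 32.7 in old, 34.0 to 49.9 in control and 53.6 to 82.6 in G93a libraries. These sums follow Vcan, which held 1917 counts in young, 1524 in old, 1492 in control and 2175 in G93a mice. In the same order Ly6c2 held 66, 88, 27 and 28 counts and Ccr2 13, 9, 4 and 30. Plac8 had 3 counts or fewer in every library. The sums are therefore not read as a level of monocytes. T and NK cell markers summed to 0.329 to 0.707 CPM in young and 0.875 to 3.17 in old libraries. In control libraries they summed to 0.154 to 1.01 CPM and in G93a libraries to 1.61 to 2.15. These sums did not overlap in either comparison, but they rest on few counts and mixed genes. Cd3e held 8 counts in young, 26 in old, 14 in control and 12 in G93a mice. In the same order Cd8a held 3, 29, 3 and 10 counts and Klrb1c 5, 4, 0 and 11. The sums are thus not read as a level of T or NK cells. Of the 8 T and NK cell markers in the tables none had enough counts to be tested, and the part of these cells in the members' changes was not tested. B cell markers summed to 0.194 to 2.6 CPM in young, 0.544 to 3.08 in old, 0.845 to 2.36 in control and 0.763 to 3.02 in G93a libraries. Border macrophage markers summed to 2.26 to 5.69 CPM in young, 2.58 to 4.67 in old, 1.77 to 3.8 in control and 4.93 to 7.63 in G93a libraries, and 1 of the 6, Mrc1, was called in G93a mice. Endothelial markers summed to 184 to 222 CPM and blood hemoglobin genes to 262 to 1080 CPM over all libraries, with none called, and Schwann cell markers reached 124 CPM in 1 G93a library and lay between 25.1 and 27.7 in controls. Neuron markers had median log2 fold changes of -0.16 and -0.82, and astrocyte markers 0.05 and 0.85.

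**Figure D3:**
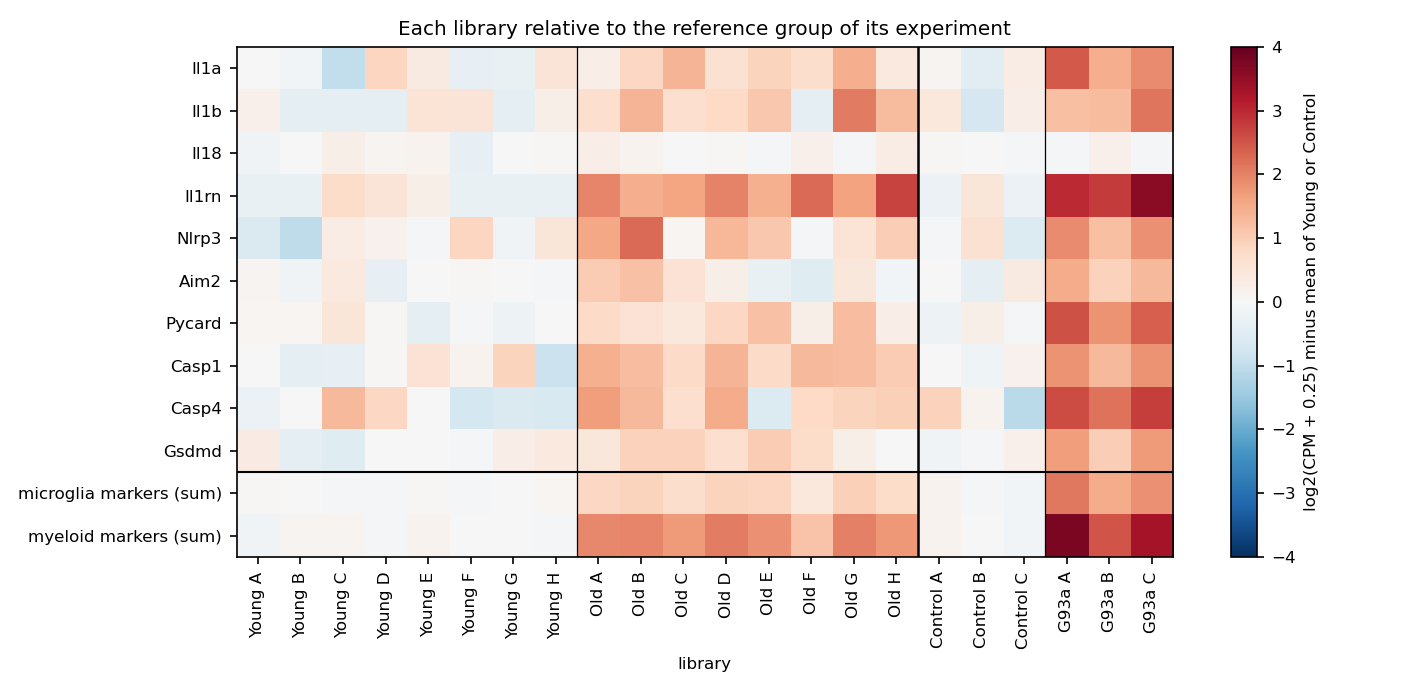
Each column is a library and each row a member or the summed CPM of a marker list, as log2(CPM + 0.25) minus the mean of the young group (aging experiment) or of the control group (ALS experiment). Red is higher and blue lower. Il18 is pale throughout, Il1rn is red in every old and G93a library, and G93a B is paler than G93a A and G93a C in most member rows and in both marker rows.

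G93a B was the lowest of its group for 8 of the 10 members and the highest for Il18, and it was also lowest in both marker sums. The 10 members summed to 63.6 CPM there, against 84.6 in G93a A and 82.3 in G93a C, while the controls ranged from 32.5 to 34.7. In the old group, old E and old F were each the lowest library for 4 members and old G the highest for 3, Il1a, Il1b and Pycard. The summed members ranged from 33.1 to 43.6 CPM in old and from 22.9 to 29.8 in young mice, with no overlap. Il18, which was not called, made up a large part of this sum, with means of 14.7 and 13.7 CPM. Taken singly, only Il1rn, too low to be tested in aging, had no overlap between old and young mice. The 8 called members were called in G93a mice with any 1 of the 6 libraries left out.

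The difference between the experiments was tested as the change in G93a minus the change in old mice, in 1 edgeR fit of all 22 libraries. Pycard was the only one of the 9 members tested whose changes differed, against 11.6% of 14502 tested genes with a more positive change in G93a mice. A count of 1 of 9 is near that share, but the count leaves out the size and direction of each difference. Whether the members differed as a set was not tested. On the log2 scale the difference was 1.68 for Casp4, 1.53 for Il1rn, 1.23 for Il1a, 0.81 for Gsdmd and 0.77 for Aim2. It was 0.56 for Casp1, 0.38 for Nlrp3 and -0.1 for Il18. For Pycard the difference was 1.56 on the log2 scale (SE 0.31, edgeR adjusted p = 0.000568). The adjusted p was 0.0707 for Gsdmd, 0.0839 for Il1a, 0.106 for Aim2, 0.151 for Casp4 and 0.275 for Casp1. It was 0.424 for Il1rn, 0.682 for Il18 and 0.726 for Nlrp3. Without G93a B, Pycard, Gsdmd and Il1a passed. Kit, sex and age differ between the experiments as well and cannot be told apart from this difference.

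A further 66 genes of the pathway, from a list of 74 names that holds older and newer symbols of some genes, were present in the tables. In old mice 41 were tested, 5 were called higher and 18 rose by the adjusted p alone, beside 2.18% and 13.5% of all tested genes, with a median log2 fold change of 0.30 against about 0 over all genes. In G93a mice 43 were tested, 15 were called higher and 25 rose by the adjusted p alone, beside 8.5% and 18.4% of all tested genes, with a median of 0.72 against about 0. Of the 15 called, Zbp1, Naip2 and Il1rl2 had fewer than 10 counts in at least 1 control library. These passed the filter through the counts of the G93a group. Tab3 and Brcc3, 2 of the 43, fell by the adjusted p alone, against 15.5% of tested genes. Tab3, part of the kinase complex under the IL-1 receptor, fell by 0.65 on the log2 scale (SE 0.14, edgeR adjusted p = 0.01), and Brcc3, a deubiquitinase that acts on NLRP3, fell by 0.34 (SE 0.1, adjusted p = 0.029). With each of the 6 libraries left out, Tab3 lost this in 1 case (adjusted p = 0.0557, without G93a C) and Brcc3 in 5 (up to 0.125).

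Among other sensors, Naip2, which recognises bacterial secretion proteins for the NLRC4 inflammasome, had 1.78 ± 0.564 CPM (SD, n = 8) in young and 5.65 ± 1.32 in old mice, a log2 fold change of 1.67 (SE 0.2, edgeR adjusted p = 1.58e-06) without overlap. In controls Naip2 had 1.28 ± 0.608 CPM (SD, n = 3) and in G93a mice 15.9 ± 3.31, a log2 fold change of 3.66 (SE 0.32, adjusted p = 0.00019). Naip5 changed by 1.19 (edgeR adjusted p = 0.0146) in old and 2.62 (0.00173) in G93a mice. Naip6 was called in G93a mice alone, at 2.47 (edgeR adjusted p = 0.000236), against 0.78 (0.139) in old mice. The Naip genes are near-identical copies, so the authors' counting may have split reads between them. Zbp1, a sensor of Z-form nucleic acid, was called in G93a mice with a log2 fold change of 3.61 (SE 0.79, edgeR adjusted p = 0.00925) on 72 against 6 counts and was too low to be tested in aging. No control library held over 4 counts of Zbp1, so Zbp1 passed the filter through the counts of the G93a group. Of the other sensors present, 15 in number, 4 were tested in aging and 6 in ALS.

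Among triggers and regulators of assembly, 2 of 12 genes, Gbp2 and Trim30a, were called in old mice and 6 of 12, these 2 included, in G93a mice, beside 2.18% and 8.5% of all tested genes. Gbp2, an interferon-induced GTPase, changed by 1.10 (SE 0.15, edgeR adjusted p = 6.69e-06) in old and 2.28 (SE 0.32, adjusted p = 0.00135) in G93a mice. Trim30a, a negative regulator of NLRP3, changed by 1.05 (edgeR adjusted p = 2.72e-05) and 2.22 (8.16e-05). Both belong to families with close copies, so reads may have been split there too. P2rx7, the ATP-gated channel whose opening triggers NLRP3, changed by 0.36 (SE 0.08, edgeR adjusted p = 0.00162) in old and by 1.12 (SE 0.13, adjusted p = 0.000648) in G93a mice. Card9, an adaptor of myeloid cells, changed by 1.05 (edgeR adjusted p = 0.00569) in G93a mice. Among other caspases, Casp12 had 3.49 ± 0.95 CPM in young, 8.03 ± 2.52 in old, 4.64 ± 0.92 in control and 26.3 ± 7.19 in G93a mice, with log2 fold changes of 1.22 (SE 0.2, edgeR adjusted p = 7.4e-05) and 2.51 (SE 0.24, adjusted p = 0.000264). Casp8, the initiator of death receptor signalling, changed by 0.79 (SE 0.18, edgeR adjusted p = 0.00227) and 1.62 (SE 0.24, adjusted p = 0.00178).

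Il1r1, the signalling receptor of both IL-1 cytokines, had 4.76 ± 1.23 CPM (SD, n = 8) in young and 7.0 ± 1.59 in old mice, and 5.28 ± 1.44 (SD, n = 3) in control and 19.1 ± 6.33 in G93a mice. Its log2 fold changes were 0.55 (SE 0.17, edgeR adjusted p = 0.0164) and 1.85 (SE 0.27, adjusted p = 0.00184). Il1rl2, the receptor of the IL-36 cytokines, changed by 0.89 (edgeR adjusted p = 0.0218) in old and 1.74 (0.00777) in G93a mice. Il18bp, which encodes the soluble trap for IL-18 and was chosen after its values were seen, stood at 0.03 (SE 0.15, edgeR adjusted p = 0.916) in old mice and rose by 0.88 (SE 0.24, adjusted p = 0.0231) in G93a mice, which was lost in 4 of the 6 cases with a library left out (edgeR adjusted p up to 0.0905). Irak4, the first kinase after the receptor, stood at 0.39 (SE 0.19, edgeR adjusted p = 0.139) in old and 1.66 (SE 0.2, adjusted p = 0.000712) in G93a mice, and the first was 0.47 (0.0457) without old F. Irak3, an inhibitory kinase of the same family, rose by 0.65 (SE 0.15, edgeR adjusted p = 0.00268) in old mice and stood at 0.71 (SE 0.34, adjusted p = 0.135) in G93a mice, or 0.91 (0.0464) without G93a B. Il33, an alarmin of the IL-1 family, was the most abundant gene of the other cytokines, at 145 ± 7.85 CPM in young, 197 ± 19.5 in old, 174 ± 24.3 in control and 243 ± 35.5 in G93a mice. It rose by 0.44 (SE 0.05, edgeR adjusted p = 1.6e-06) and 0.48 (SE 0.14, adjusted p = 0.0261), without overlap in either comparison. In G93a mice this was lost in 4 of the 6 cases with a library left out (edgeR adjusted p up to 0.104). Il1f5, Il1f6, Il1f8 and Il1f10, which encode IL-36 and related cytokines, had 0 counts in every library. Il1f9, of the same list, held 17 counts in young, 15 in old, 9 in control and 1 in G93a mice, too few to be tested.

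**Figure D4:**
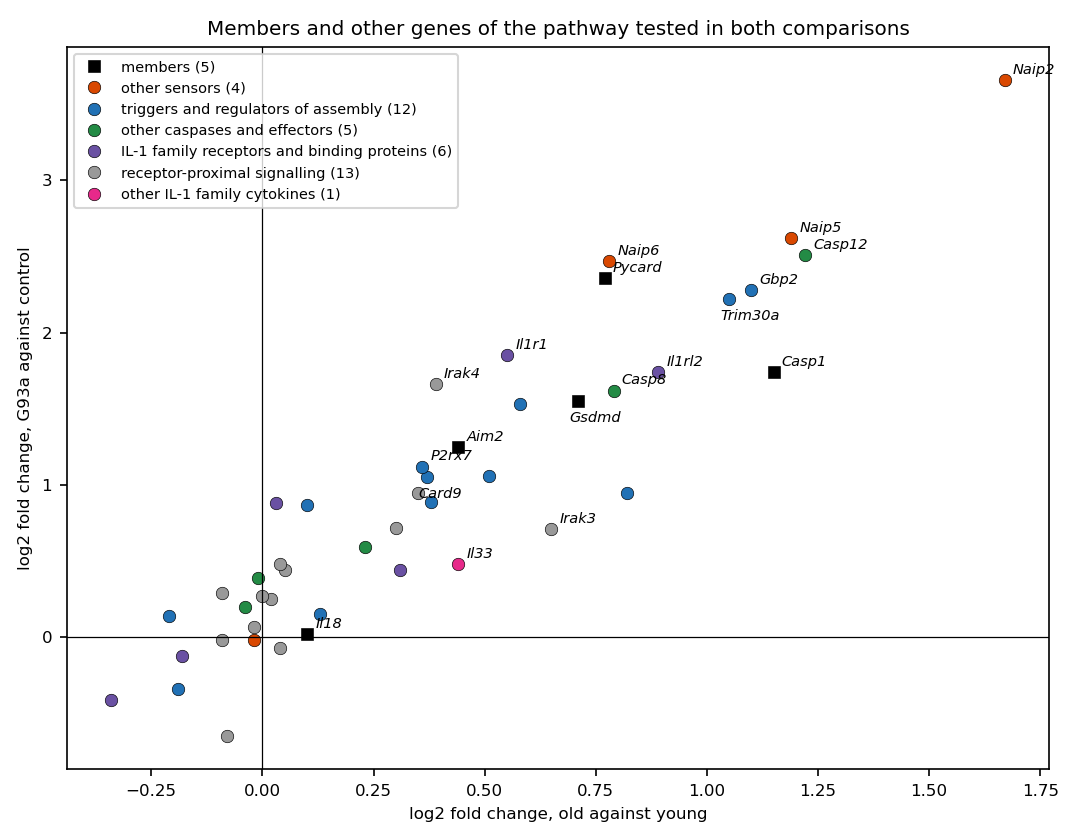
Log2 fold change in old against young mice (horizontal) and in G93a against control mice (vertical) for the 5 members (black squares) and the 41 other genes of the pathway (circles, coloured by role) that were tested in both. The 2 comparisons share no samples. Of the 41, 36 had a larger log2 fold change in G93a than in old mice, as had 52.0% of the 13610 genes tested in both, and Naip2 lies at the top right with 1.67 and 3.66.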

How the data were processed

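Whole spinal cords were extruded in cold buffered saline, RNA was extracted with Trizol and Qiagen columns, and libraries were sequenced on an Illumina HiSeq. The authors aligned reads with STAR to mm10, quantified them with RSEM on an Ensembl annotation, and deposited expected counts for 21995 genes, not normalized between libraries. The authors also deposited log2(FPKM + 1) values for the same libraries, which were turned back to FPKM here. RSEM and samtools 1.3 are named in the submitters' processing notes. The strand setting of the counting is not given in the sources used here.

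Expected counts were rounded to whole numbers. The aging and the ALS libraries were handled separately: filterByExpr (minimum count 10, minimum total 15), TMM scaling and the quasi-likelihood test of edgeR 4.0.16 in R 4.3.3, with p-values adjusted by Benjamini-Hochberg across every gene that entered the test. Members removed by the filter were tested on CPM by an exact two-sided permutation test over mice, of which 5 were run in aging and 1 in ALS. Ratios of summed counts have exact binomial 95% intervals, which cover counting error only. The difference between comparisons was an interaction term in 1 fit of 22 libraries. Symbols and positions are from GENCODE M21 (GRCm38), which held 21842 of the 21995 genes, and promoters are from RefSeq. The edgeR step was tested on simulated data. Alternatives used DESeq2 1.42.0 and limma 3.58.1, RLE scaling, other filters and pseudocounts, glmTreat, 1 fit of all libraries, and each library left out.

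Columns give a library's group and not its replicate number. No pair of libraries of a group was identical, and the chi-square of their counts over its degrees of freedom was at least 2.52. The labels do not say more of how mice were drawn. The p-values weigh a difference between groups against the variation between these libraries. With 1 library per mouse, variation of the mouse and of the library was not told apart. The members and lists were chosen with earlier results of these data known. All members are named in the text, together with the called pathway genes of each role group (at most 4, those of smallest adjusted p) or, where none was called, the 1 with the smallest adjusted p. Tab3, Brcc3 and Il18bp were chosen after their values were seen.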

Additional observations from a re-analysis of the deposited data

Results flagged for a closer look

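The change of Pycard differed between the experiments by 1.56 on the log2 scale (edgeR adjusted p = 0.000568), larger in G93a mice. Among the other named genes of the pathway, the same difference was 1.95 for Naip2, 1.65 for Naip6, 1.27 for Il1r1, 1.26 for Casp12, 1.25 for Irak4, 1.15 for both Gbp2 and Trim30a, 0.82 for Il18bp and 0.74 for P2rx7, with edgeR adjusted p from 0.000635 to 0.0414. Most of these genes were named for their small adjusted p in G93a mice, so the direction of the difference partly follows from that choice. The other 8 named, among them Naip5 (adjusted p = 0.0805), Casp8 (0.0551) and Il33 (0.967), did not pass. Over the whole pathway list, 14 of 46 tested genes had a more positive change in G93a mice, beside 11.6% of all tested genes. For Tab3 it was -0.59 (adjusted p = 0.00624), lower in G93a mice. Kit, sex and age cannot be told apart from the experiment in each of these. In 56 groups of 8 mice looked at, a library stood apart from the rest of its group for Irak3, where old A had 5.98 CPM and the next library 4.31, and for Trim30a, where young G had 5.09 CPM and the next 3.76. Chance would mark about 1 in 20 such groups.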

How the results depend on the processing

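In old mice 1 member was called. No filter on low counts and DESeq2 each called 4 (Casp1, Il1b, Il1rn and Nlrp3), and 1 fit of all libraries called 3 (Casp1, Il1rn and Nlrp3). At least 10 counts in every library, which left 3 members, called 0, glmTreat in edgeR called 0 and limma on log2(FPKM + 1) called 0, while 2, 0 and 4 members had an unadjusted p under 0.05 there. The 5 pathway genes called in old mice became 3 with at least 10 counts in every library, 1 with glmTreat and 1 with limma on log2(FPKM + 1). Leaving out each library gave 3 to 6, with 3 (Naip5, Casp12 and Naip2) without old G. In G93a mice the 8 called members became 4 with at least 10 counts in every library, a filter that left 5 members to test. With glmTreat they became 4 and the 15 pathway genes became 8. Leaving out each library gave 8 members each time and 14 to 20 pathway genes. The members whose change differed between experiments numbered 1 to 3 with each ALS library left out, 3 without G93a B. The Il18 change in G93a mice was -0.0046 in 1 fit of all libraries, and -0.065 to 0.088 with each library left out (-0.065 without G93a B, -0.0029 without control C). The Il18bp change in old mice was -0.065 to 0.07 with each library left out, and was -0.0033 without young E, -0.0058 without young F, -0.017 without young H, -0.013 without old A and -0.065 without old E. The cause of these differences was not tested. Of 908 alternatives of 55 single-gene values, 860 kept direction and side of the threshold, 34 fell below it, 6 passed it and 8 turned direction. The threshold here joins a log2 change over 1 with a p under 0.05. A gene under 1 in log2 change thus counts as kept even where its adjusted p crossed 0.05, as for Brcc3 and Il33 in G93a mice. No paired analysis was possible because the columns of the tables carry no replicate numbers. Depth limits Il1b, Il1rn, Casp4, Il1a and Nlrp3 in the aging libraries, and 3 mice a group limit the ALS comparison.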
